A study of Mus musculus with 56 samples.

Results

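Potassium channel genes outside the Kv1 and Kv3 families were followed across the prefrontal cortex of mice that differ in genotype and in early drug exposure. They were taken as all genes of the deposited table whose symbol starts with Kcn, except those starting with Kcna or Kcnc, which gave 73 of 18088 genes (13 Kcna and Kcnc genes were set aside). RNA sequencing was done on 56 C57BL/6J mice at postnatal day 25. Their Scn2a gene, which encodes the neuronal sodium channel NaV1.2, was heterozygous (HT) or wild type (WT), and they had received fluoxetine, lithium or vehicle through the milk of their mothers from day 3 to day 24. Fluoxetine blocks serotonin reuptake, lithium inhibits glycogen synthase kinase 3 and inositol monophosphatase, and the agent that served as vehicle is not named in the labels. The groups were HT fluoxetine (4 females and 5 males), HT lithium (5 and 5), HT vehicle (5 and 5), WT fluoxetine (4 and 5), WT lithium (4 and 5) and WT vehicle (5 females and 4 males). The labels give no Scn2a allele beyond the genotype, and they name no dam or litter, so a group may hold pups of a single mother and the p-values measure only the spread between these samples.

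Potassium channels let potassium leave a neuron, which sets its resting potential, ends each action potential and spaces the spikes of a train. Voltage-gated Kv channels open on depolarisation, calcium-activated BK and SK channels open when calcium enters, inward rectifiers of the Kir family hold the membrane near rest or respond to G proteins and ATP, and two-pore K2P channels leak at all voltages. Many Kv pores carry auxiliary subunits, such as the KChIP proteins of Kv4, the KCNE peptides and the beta subunits of BK, and the silent subunits of the Kv5, Kv6, Kv8 and Kv9 families form no channel alone but assemble with Kv2.

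Scn2a itself had a normalized value of 7583 to 9619 (median 8581, n = 29) in HT mice and 9727 to 13381 (median 12421, n = 27) in WT mice, with no overlap. The libraries held 24.3 to 36.4 M reads (median 27.9 M), and the log2 values of any pair of libraries correlated at 0.977 to 0.99. The 10 listed markers of cortical excitatory neurons were present in every library, with a summed value of 146153 to 189227. Markers of neighbouring tissue varied far more: the summed value of 15 olfactory bulb and neuroblast markers ran from 8359 to 35907, and that of 15 striatal markers from 7736 to 32394. In 19 libraries the score of either list (the mean log2 deviation of its genes from the median library) was above 1, and the results are given with and without these libraries where the call changed. No listed marker of any of the 10 lists was at 0 in all libraries.

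All 73 genes reached a value of 10 in at least 4 libraries and were tested, although Kcnj15 did so in 6 libraries only, Kcnn4 in 15, Kcnk15 in 25 and Kcnj5 in 28. Per kilobase of exon, the highest level was that of Kcnj4, which encodes the strong inward rectifier Kir2.3, at 2035 ± 125 (SD over 56 libraries, normalized value per kb). Kcnh3, the ELK channel Kv12.2, stood at 1545 ± 82.8 per kb. Kcnmb4, the neuronal beta subunit of BK channels, stood at 1538 ± 132 per kb. Kcnh3 and Kcnmb4 lay within 1 SD of each other, whereas the lowest gene, Kcnj15, which encodes Kir4.2, stood at 1.04 ± 0.579 per kb.

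By subfamily, the 14 Kir genes made up 22.9% of the summed level per kb of the 73 genes. The 4 KChIP genes made up 11.8% (led by Kcnip3, the calcium-binding protein also called DREAM, at 1364 per kb), the 8 genes of the EAG, HERG and ELK group 11.1%, and the 9 silent Kv genes 10.95%. Among the silent genes Kcnf1 was highest at 1295 per kb, followed by Kcnv1 at 727 per kb. The 11 K2P genes made up 10.4%, with the leak channel Kcnk1 (TWIK1) at 1207 per kb, and the 5 Kv7 genes 10.3%. BK and its beta subunits made up 8.90%. Kv4 genes made up 3.48%, led by Kcnd2 (547 per kb). The sodium-activated and Slo3 genes made up 3.40%, led by Kcnt1 (727 per kb), and SK and IK genes 2.60%, led by Kcnn3 (289 per kb). The KCNE genes made up 0.299%, led by Kcne1l at 65.1 per kb. HERG1 itself, Kcnh2, stood at 224 per kb.

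**Figure D1:**
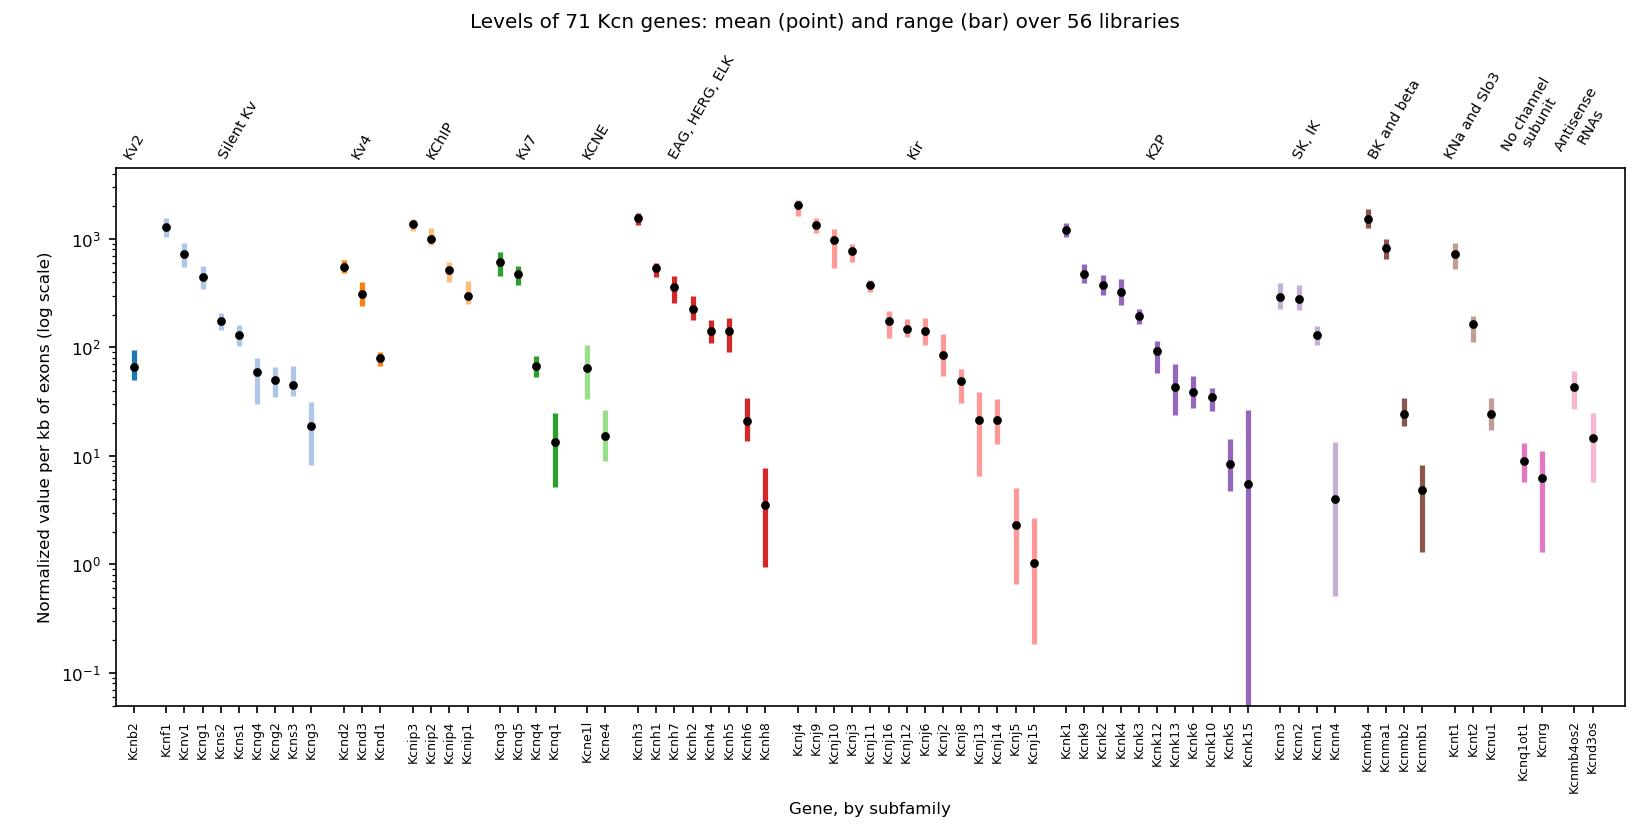
Mean (point) and range over 56 libraries (bar) of the normalized value per kb of exon for each of 71 Kcn genes, ordered by subfamily and level, on a log scale. Kcnj4, Kcnh3 and Kcnmb4 stand at 1538 to 2035 per kb, and the bar of Kcnk15 reaches the lower edge because libraries held 0 reads of it.

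Levels of most of these genes differed little between the 6 groups of genotype and treatment. The ratio of the highest to the lowest group mean had a median of 1.125 over the 73 genes and was under 1.2 in 52 of them. It was lowest for Kcnd2, the Kv4.2 gene of the dendritic A-type current, at 1.04. It was highest for Kcnk15 at 3.49, followed by Kcnq1 at 1.69 and Kcnn4 at 1.61. For the 55 genes with a mean value of at least 100 the ratio reached 1.39 at most, and its median was 1.11, against 1.30 for the 18 genes below 100. The coefficient of variation over all libraries ran from 5.05% in Kcnip3 to 110% in Kcnk15, with a median of 11.2%.

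Lithium gave calls among these genes in both genotypes, and the other comparisons gave none (limma on log2(value + 1), Benjamini-Hochberg adjusted p below 0.05 over the 17778 genes tested). In HT mice 6 of 73 genes were called (8.22%), 4 higher and 2 lower, against 8.77% of all genes tested, with 4.64% higher and 4.13% lower. In WT mice 3 of 73 were called (4.11%), all lower, against 5.71% of all genes tested, with 3.84% higher and 1.88% lower. Both shares stood near those of all genes. Of the 8 different genes called, Kcnq1 was called in both genotypes, whose libraries are not shared, and 65 genes were called in no comparison. In these bulk samples, fewer cells of a type and less RNA per cell cannot be told apart.

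Promoter windows are shown for 5 of the called genes, because 2 of them are antisense RNAs whose start lies inside or beside a called or listed channel gene. They run from 250 bases before to 50 bases after the RefSeq start (GRCm38.p6), written 5′ to 3′ on the strand of the gene, with capitals for the CCAAT box, the TCF/LEF core CTTTGA, the cAMP response element TGACGTCA and the E-box CACGTG, searched on both strands.
Kcnq1ot1, chr7:143296498-143296797, minus strand: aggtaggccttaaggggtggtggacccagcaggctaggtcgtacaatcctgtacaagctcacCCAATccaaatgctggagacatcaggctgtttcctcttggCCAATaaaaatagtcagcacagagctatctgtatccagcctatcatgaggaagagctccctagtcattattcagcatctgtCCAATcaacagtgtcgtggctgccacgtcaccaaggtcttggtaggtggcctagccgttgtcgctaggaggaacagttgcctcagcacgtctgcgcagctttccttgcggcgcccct
Kcnmb4, chr10:116473474-116473773, minus strand: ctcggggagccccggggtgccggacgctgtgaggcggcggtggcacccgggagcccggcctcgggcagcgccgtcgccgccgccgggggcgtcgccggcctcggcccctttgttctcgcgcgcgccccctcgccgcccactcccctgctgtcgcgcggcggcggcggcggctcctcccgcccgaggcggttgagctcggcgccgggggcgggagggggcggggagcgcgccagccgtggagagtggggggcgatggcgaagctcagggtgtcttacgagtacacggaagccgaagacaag
Kcnmb4os2, chr10:116472913-116473212, plus strand: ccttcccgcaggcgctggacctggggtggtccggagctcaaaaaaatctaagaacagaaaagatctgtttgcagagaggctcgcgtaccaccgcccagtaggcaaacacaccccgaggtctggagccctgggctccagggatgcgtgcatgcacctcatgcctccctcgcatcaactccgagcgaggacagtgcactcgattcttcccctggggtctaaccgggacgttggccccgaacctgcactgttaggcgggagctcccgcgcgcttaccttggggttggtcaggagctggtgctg
Kcnd3, chr3:105451640-105451939, plus strand: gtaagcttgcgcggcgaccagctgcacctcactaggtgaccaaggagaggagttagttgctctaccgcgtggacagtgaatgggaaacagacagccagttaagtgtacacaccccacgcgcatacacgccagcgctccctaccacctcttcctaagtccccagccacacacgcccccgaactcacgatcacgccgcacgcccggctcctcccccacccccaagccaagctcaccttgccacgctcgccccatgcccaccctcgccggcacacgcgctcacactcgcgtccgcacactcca
Kcnh4, chr11:100759729-100760028, minus strand: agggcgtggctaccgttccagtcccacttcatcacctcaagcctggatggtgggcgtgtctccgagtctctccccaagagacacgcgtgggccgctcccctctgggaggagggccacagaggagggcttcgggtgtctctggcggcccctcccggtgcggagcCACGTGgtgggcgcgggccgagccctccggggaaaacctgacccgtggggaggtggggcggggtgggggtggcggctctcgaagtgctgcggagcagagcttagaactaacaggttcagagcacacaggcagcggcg
The Kcnq1ot1 window held CCAAT 3 times, as at least 3 copies did in 3.37% of 32851 RefSeq windows of this length, and the Kcnh4 window held CACGTG once, as 7.15% of all windows did. The windows of Kcnmb4, Kcnmb4os2 and Kcnd3 held none of the 4 motifs. The window of Kcnmb4 was 79% G or C with 48 CG dinucleotides, against medians of 52.7% and 7 over all windows and of 61.7% and 11 over the 69 windows of the 53 genes of the group that RefSeq listed. Over those 69 windows, CCAAT was in 34.8% (37.4% of all windows), CTTTGA in 8.70% (16.0%), TGACGTCA in none (1.79%) and CACGTG in 7.25% (7.15%).

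Within Kv7, Kcnq1 fell with lithium in both genotypes, and none of the M-current genes passed the test. Kcnq1 (ENSMUSG00000009545, chr7:143106362-143427042 on GRCm38, plus strand) encodes Kv7.1, the slow delayed rectifier subunit best known from heart, inner ear and epithelia, and it was the lowest of the 5 Kv7 genes here at 13.4 per kb. Its normalized value was 19.3 to 39.6 (median 30.7, n = 10) in HT lithium mice and 36.0 to 57.1 (median 45.0, n = 10) in HT vehicle mice. In WT it was 15.8 to 46.7 (median 30.5, n = 9) in lithium mice and 38.3 to 76.0 (median 47.6, n = 9) in vehicle mice. The ranges overlapped in both genotypes, yet every lithium library, 10 of 10 HT and 9 of 9 WT, lay below the vehicle mean of its genotype and sex. Its log2 change was -0.56 ± 0.16 (SE, adjusted p = 0.0246) in HT and -0.73 ± 0.17 (adjusted p = 0.0101) in WT. Without the 19 libraries rich in olfactory or striatal markers the log2 change of Kcnq1 was -0.48 in HT (adjusted p = 0.232) and -0.56 in WT (adjusted p = 0.177), and single omissions ended the HT call for HT lithium male 3 (adjusted p = 0.0659) and HT vehicle male 1 (adjusted p = 0.0532).

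Across libraries, Kcnq1 deviated from its group means together with the scores of microglia (r = 0.43, adjusted permutation p = 0.00987), endothelial cells and pericytes (r = 0.36, 0.0151) and astrocytes (r = 0.27, 0.0339). All 10 microglia markers had a negative estimate under lithium, with a median log2 change of -0.080 in HT and -0.16 in WT, and 1 of them was called in each genotype. Their summed value was 10169 to 12327 in HT lithium mice, 10588 to 13648 in HT vehicle mice, 9132 to 12735 in WT lithium mice and 10870 to 12966 in WT vehicle mice. The summed value of the 10 endothelial and pericyte markers was 10310 to 13220 in HT lithium mice, 11336 to 15490 in HT vehicle mice, 11871 to 14663 in WT lithium mice and 12468 to 15586 in WT vehicle mice. None of these markers was at 0 in any library, and their part in the change of Kcnq1 was not tested.

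Kcnq1ot1 (ENSMUSG00000101609, chr7:143203458-143296549, minus strand), the imprinted antisense RNA that lies within Kcnq1 and silences neighbouring genes in cis, fell with lithium in WT mice. Its value was 689 to 865 (median 784) in WT lithium mice and 872 to 1055 (median 948) in WT vehicle mice. The ranges did not overlap, which held for 0.411% of all genes tested in this comparison and for 1 of these 73. Its log2 change was -0.30 ± 0.089 (adjusted p = 0.0384), and it was -0.34 to -0.29 under the alternatives other than single omissions. With olfactory and striatal scores as covariates its adjusted p was 0.0523, without the 19 marker-rich libraries 0.0808, and 11 of the 56 single omissions, all of WT lithium or WT vehicle libraries, ended the call (adjusted p up to 0.0863, without WT lithium female 2). Kcnq1ot1 deviated from its group means against the interneuron score (r = -0.47, rho = -0.45, adjusted permutation p = 0.00452). This score was 0.014 to 0.13 (median 0.048) in WT lithium mice and -0.048 to 0.091 (median 0.021) in WT vehicle mice. Its 8 markers summed to 24523 to 28137 in WT lithium mice and 23292 to 32207 in WT vehicle mice, with none at 0 in any library. The part of these markers in the change of Kcnq1ot1 was not tested. In HT mice it had 671 to 931 (median 789) under lithium and 539 to 964 (median 810) under vehicle, widely overlapping, with a log2 change of 0.045 ± 0.084 (adjusted p = 0.799). The genotype by lithium interaction was 0.34 ± 0.12 (adjusted p = 0.314). The 93092 bases of Kcnq1ot1 lie wholly within the span of Kcnq1, whose exons total 3029 bases. The library kit keeps strand, but whether the counting used it is not given in the sources used here. Reads of any Kcnq1 exon inside Kcnq1ot1 therefore cannot be assigned with certainty to either gene. The deviations of the 2 genes from their group means were related at r = -0.17 (rho = -0.13, permutation p = 0.214, adjusted 0.295, n = 56).

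Of the remaining Kv7 genes, Kcnq3, a pore subunit of the M-channel, had log2 changes of -0.068 in HT and -0.039 in WT. Kcnq5, which can join Kcnq3, had 0.043 in HT and 0.12 in WT (unadjusted p = 0.0165, adjusted 0.128).

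In the Kv4 group Kcnd3 rose with lithium in HT mice. Kcnd3 (ENSMUSG00000040896, chr3:105452330-105674002, plus strand) encodes Kv4.3, a pore of the transient A-type current. It had 2119 to 2919 (median 2495) in HT lithium mice and 1847 to 2484 (median 2170) in HT vehicle mice. The ranges overlapped, and 9 of 10 lithium libraries lay above the vehicle mean of their sex. Its log2 change was 0.18 ± 0.058 (adjusted p = 0.0377), and it was 0.21 (adjusted p = 0.0157) without the marker-rich libraries and 0.17 (adjusted p = 0.0037) with the scores as covariates. In WT mice the values were 2065 to 2427 (median 2241) under lithium and 1953 to 2498 (median 2206) under vehicle, with a log2 change of 0.015 ± 0.061 (adjusted p = 0.918), and the interaction was 0.17 ± 0.084 (adjusted p = 0.465). Fitted to the HT lithium and HT vehicle libraries alone, Kcnd3 had an adjusted p of 0.0529, and 11 of 56 omissions, all of HT lithium or HT vehicle libraries, ended the call (adjusted p up to 0.0915, without HT lithium female 3).

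Kcnd2 and Kcnd1, the other Kv4 pores, had log2 changes of 0.056 and 0.067 in HT and 0.027 and 0.0685 in WT, at adjusted p of 0.292 to 0.797. Of the 4 KChIP genes, Kcnip3 came nearest to the threshold. It had 4354 to 4879 (median 4567) in WT lithium mice and 3888 to 4645 (median 4258) in WT vehicle mice (log2 change 0.10 ± 0.035, adjusted p = 0.0612), with 9 of 9 libraries above the vehicle mean of their sex.

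In the EAG, HERG and ELK group Kcnh4 rose with lithium in HT mice. Kcnh4 (ENSMUSG00000035355, chr11:100740376-100759942, minus strand) encodes the ELK channel Kv12.3. Its value was 524 to 693 (median 585) in HT lithium mice and 435 to 575 (median 507) in HT vehicle mice. The ranges overlapped, and 10 of 10 lithium libraries lay above the vehicle mean of their sex. Its log2 change was 0.19 ± 0.061 (adjusted p = 0.0457), and it was 0.18 to 0.25 under the alternatives other than single omissions. The call lay close to the threshold, with an adjusted p of 0.0626 without the marker-rich libraries, and 12 of 56 omissions, all of HT lithium or HT vehicle libraries, ended the call (adjusted p up to 0.0947, without HT vehicle male 1). In WT mice Kcnh4 had 501 to 708 (median 607) under lithium and 440 to 610 (median 576) under vehicle, with a log2 change of 0.10 ± 0.065 (adjusted p = 0.363). The genotype by lithium interaction of Kcnh4 was 0.083 (adjusted p = 0.757). The HERG1 gene Kcnh2 had log2 changes of 0.018 ± 0.051 in HT and -0.048 ± 0.054 in WT (adjusted p = 0.879 and 0.653).

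Of the K2P genes 1 of 11 was called in HT mice and none in WT mice. Kcnk9 (ENSMUSG00000036760, chr15:72501089-72546340, minus strand) encodes TASK3, an acid-sensitive leak channel, and had the smallest p of the 73 genes under lithium in HT mice. Its value was 5654 to 7064 (median 6284) in HT lithium mice and 4877 to 6699 (median 5233) in HT vehicle mice. The 3 highest vehicle libraries lay above the lowest lithium library, and 9 of 10 lithium libraries lay above the vehicle mean of their sex. The log2 change was 0.23 ± 0.053 (adjusted p = 0.00476), and the call held in all 56 single omissions (adjusted p 0.00148 to 0.0147) but not without the 19 marker-rich libraries (log2 change 0.22, adjusted p = 0.069). In WT mice Kcnk9 had 5501 to 7092 (median 5815) under lithium and 4909 to 7186 (median 6007) under vehicle, with a log2 change of -0.0072 ± 0.056 (adjusted p = 0.960). The interaction was 0.24 ± 0.078 (unadjusted p = 0.00375, adjusted 0.266), the smallest p of the 73 genes in that comparison. Under vehicle, HT mice had 4877 to 6699 (median 5233) and WT mice 4909 to 7186 (median 6007), a log2 difference of -0.17 ± 0.055 (adjusted p = 0.275); this shares the HT vehicle libraries with the lithium comparison.

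In the BK group Kcnmb4 was called lower with lithium in HT mice, and its antisense partner Kcnmb4os2 was called lower in WT mice. Kcnmb4 (ENSMUSG00000054934, chr10:116417861-116473878, minus strand) encodes the beta4 subunit, which slows the gating of BK channels in neurons. It had 1737 to 2157 (median 1987) in HT lithium mice and 1994 to 2519 (median 2238) in HT vehicle mice. The ranges overlapped, and 10 of 10 lithium libraries lay below the vehicle mean of their sex. The log2 change was -0.17 ± 0.052 (adjusted p = 0.0363), and it was -0.17 (adjusted p = 0.0328) without the marker-rich libraries. Omissions of 11 of the HT lithium and HT vehicle libraries ended the call (adjusted p up to 0.0884, without HT vehicle female 5). In WT mice Kcnmb4 had 1707 to 2153 (median 2084) under lithium and 1791 to 2222 (median 2130) under vehicle (log2 change -0.028 ± 0.055, adjusted p = 0.819). The genotype by lithium interaction of Kcnmb4 was -0.14 (adjusted p = 0.496). The pore gene Kcnma1 had log2 changes of 0.065 ± 0.048 in HT and 0.034 ± 0.051 in WT (adjusted p = 0.432 and 0.745).

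Kcnmb4os2 (ENSMUSG00000085837, chr10:116473163-116475319, plus strand) starts inside Kcnmb4, near the start of that gene, and overlaps it by 716 bases. It had 54.6 to 93.9 (median 72.0) in WT lithium mice and 73.7 to 116 (median 94.2) in WT vehicle mice. The ranges overlapped, and 8 of 9 lithium libraries lay below the vehicle mean of their sex. The log2 change was -0.42 ± 0.11 (adjusted p = 0.0166), and it was -0.40 (adjusted p = 0.0903) without the marker-rich libraries. In HT mice it had 54.4 to 106 (median 79.2) under lithium and 75.4 to 109 (median 84.1) under vehicle (log2 change -0.18 ± 0.10, adjusted p = 0.294). The genotype by lithium interaction of Kcnmb4os2 was 0.24 (adjusted p = 0.549). Over the 56 libraries the deviations of Kcnmb4 and Kcnmb4os2 from their group means were related at r = 0.34 (rho = 0.26, permutation p = 0.0240, adjusted 0.0481; 0.32 without the 2 libraries farthest from the median), and reads of the overlap cannot be assigned with certainty to one of the pair.

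Kcnt1 (ENSMUSG00000058740, chr2:25863734-25918273, plus strand) encodes Slack, a channel opened by the sodium that enters during firing. It rose with lithium in HT mice, to 4199 to 5762 (median 4960), against 3303 to 4864 (median 4366) in HT vehicle mice. The ranges overlapped, and 8 of 10 lithium libraries lay above the vehicle mean of their sex. The log2 change was 0.17 ± 0.057 (adjusted p = 0.0466), the call with the highest adjusted p. The change was 0.17 to 0.18 under every alternative other than single omissions, but its adjusted p was 0.120 in a fit to the 2 groups alone, 0.156 without the marker-rich libraries and 0.0560 with the replicate number as a block, and 16 of 56 omissions ended the call, among them that of HT vehicle female 4, the lowest vehicle library (adjusted p = 0.125). In WT mice Kcnt1 had 4162 to 5197 (median 4658) under lithium and 3979 to 5289 (median 4392) under vehicle (log2 change 0.059 ± 0.060, adjusted p = 0.618). The genotype by lithium interaction of Kcnt1 was 0.11 (adjusted p = 0.616). Its relative Kcnu1, the Slo3 channel known from sperm, had 71.1 to 122 (median 97.1) in WT lithium mice and 74.9 to 90.1 (median 82.6) in WT vehicle mice (log2 change 0.24 ± 0.080, adjusted p = 0.0648).

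**Figure D2:**
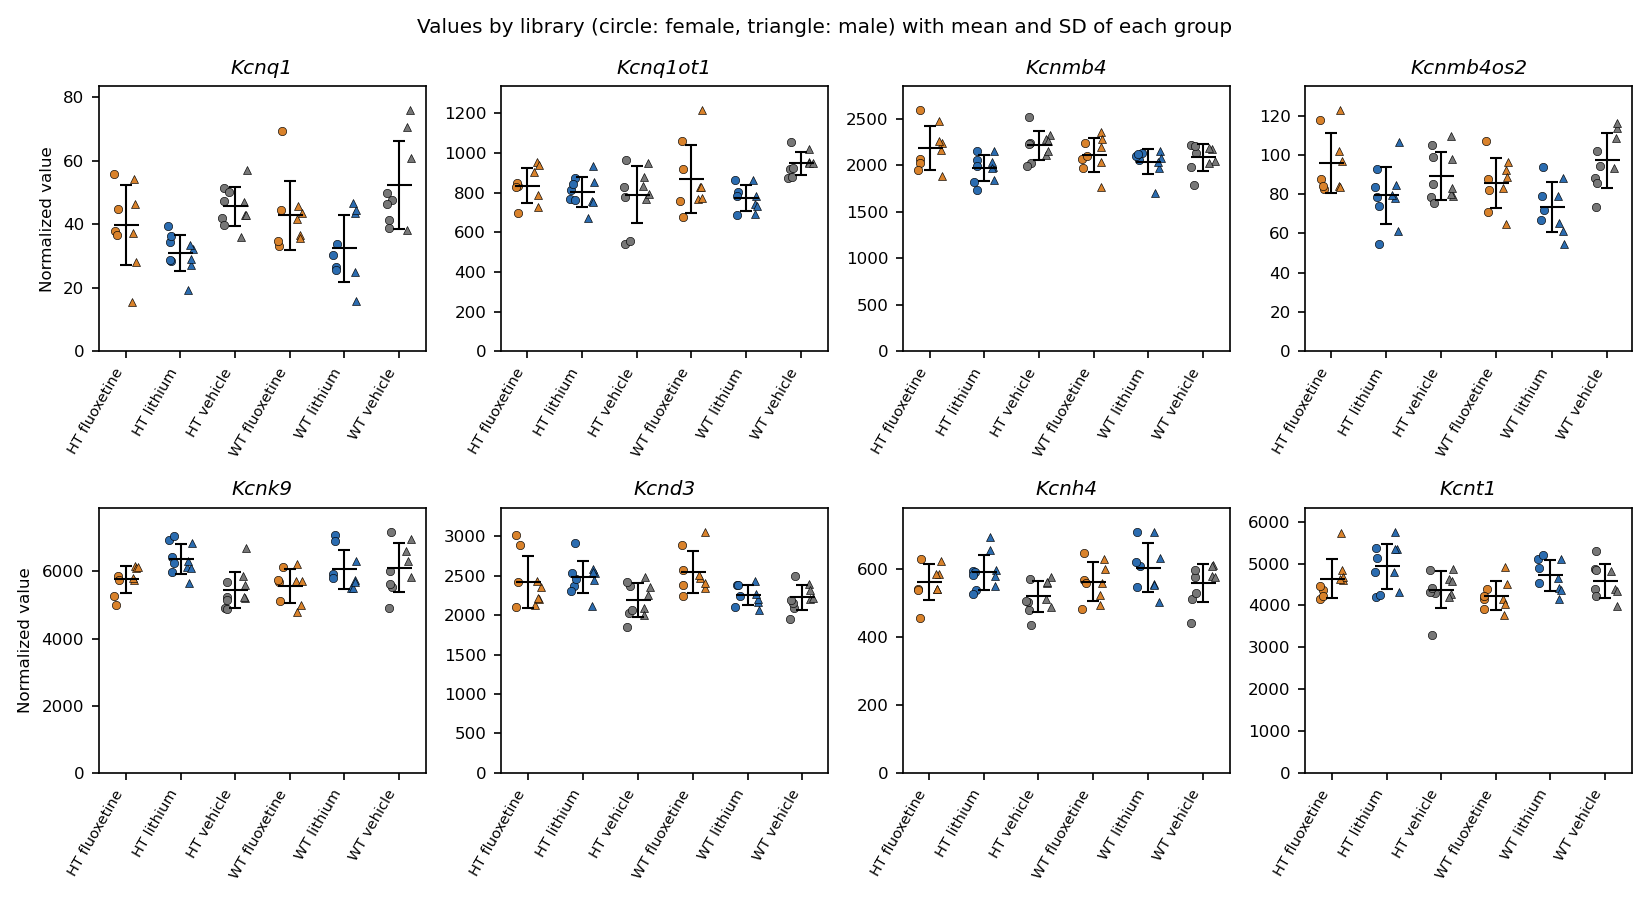
Normalized value of the 8 called genes in every library (circles females, triangles males), with mean and SD of the 6 groups of genotype and treatment. Kcnq1 sits lower under lithium than under vehicle in both genotypes (medians 30.7 against 45.0 in HT and 30.5 against 47.6 in WT), and Kcnq1ot1 does not overlap between WT lithium (689 to 865) and WT vehicle (872 to 1055).

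Markers of neighbouring tissue moved across libraries with 5 of the genes called in HT mice. The score of the olfactory and neuroblast list was related to the deviations of Kcnd3 (r = 0.71), Kcnmb4 (r = -0.66), Kcnh4 (r = -0.57), Kcnk9 (r = -0.57) and Kcnt1 (r = -0.40), with adjusted permutation p of 0.000261, 0.000730, 0.000730, 0.00109 and 0.0329. Kcnmb4 was more closely related to the excitatory neuron score (r = 0.80), whose median was -0.037 in HT lithium mice and 0.024 in HT vehicle mice, with 3 of 10 markers having a positive estimate. Its summed value was 150192 to 187009 in HT lithium mice and 164597 to 180989 in HT vehicle mice, and its part in the fall of Kcnmb4 was not tested. Kcnk9 was related to the interneuron score as closely as to the olfactory one (r = -0.58). The interneuron score was -0.11 to 0.080 (median 0.0088) in HT lithium mice and -0.11 to 0.069 (median 0.029) in HT vehicle mice. Its 8 markers summed to 22387 to 31385 in HT lithium mice and 23062 to 27310 in HT vehicle mice, their part in the change of Kcnk9 not being tested. In HT mice the olfactory list had 10 of 15 markers with a positive estimate under lithium and a median log2 change of 0.018. Its summed value was 9054 to 34013 in HT lithium mice and 9717 to 24058 in HT vehicle mice. In WT mice 15 of 15 had a negative estimate (median -0.43), and the summed value was 8987 to 17338 in lithium mice and 9629 to 35907 in vehicle mice, while 15 of 15 striatal markers had a positive one (median 0.28), with a summed value of 8407 to 24001 in lithium mice and 7736 to 14969 in vehicle mice. With both scores as covariates, Kcnk9, Kcnmb4, Kcnd3, Kcnh4 and Kcnt1 kept their calls in HT mice, at adjusted p of 0.000235, 0.00391, 0.0037, 0.00871 and 0.00732.

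Among the 65 other genes, several lay just above the threshold under lithium and are given here after their values were seen. Kcnn2, the SK2 channel of the afterhyperpolarisation, had 915 to 1383 (median 1035) in HT lithium mice and 852 to 1139 (median 923) in HT vehicle mice, and 974 to 1266 (median 1085) in WT lithium mice and 822 to 1088 (median 967) in WT vehicle mice. Its log2 change was 0.18 ± 0.062 in HT (adjusted p = 0.0534) and 0.18 ± 0.065 in WT (adjusted p = 0.0932), with 9 of 10 and 9 of 9 lithium libraries above the vehicle mean of their sex. Kcnn2 was called in HT with the replicate number as a block (adjusted p = 0.0249), with DESeq2 (0.0366), with tissue scores as covariates (0.0481), in a fit to the 2 groups alone (0.049) and in 13 of 56 single omissions. Kcns2, a silent Kv9 subunit, had 931 to 1096 (median 1028) in WT lithium mice and 808 to 1033 (median 918) in WT vehicle mice (log2 change 0.16 ± 0.050, adjusted p = 0.0522). Kcns2 was called in a fit to these 2 groups alone (adjusted p = 0.0417) and in 10 of 56 single omissions. Kcnj11, the Kir6.2 pore of the ATP-sensitive channel, had 1083 to 1304 (median 1262) and 1030 to 1253 (median 1149) in the same groups (log2 change 0.12 ± 0.039, adjusted p = 0.0609). Kcnj11 was called in 1 of 11 alternatives other than single omissions (adjusted p = 0.0426) and in 4 of 56 single omissions. With tissue scores as covariates its adjusted p was 0.124. Kcne1l, a KCNE subunit, had 51.3 to 153 (median 86.9) in HT lithium mice and 88.1 to 152 (median 114) in HT vehicle mice (log2 change -0.39 ± 0.14, adjusted p = 0.0795), and -0.40 ± 0.15 in WT (adjusted p = 0.107).

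By subfamily, the median log2 change of the 73 genes under lithium was 0.013 in HT mice (39 of 73 higher, 53.4% against 49.7% of all genes tested) and 0.040 in WT mice (45 of 73 higher, 61.6% against 50.7%). The HT medians were 0.039 for K2P, 0.13 for SK and IK, 0.17 for the sodium-activated and Slo3 genes, 0.067 for Kv4, -0.014 for Kir, -0.032 for silent Kv, -0.018 for KChIP and -0.040 for both Kv7 and BK. In WT they were 0.054 for K2P, 0.043 for SK and IK, 0.12 for the sodium-activated and Slo3 genes, 0.027 for Kv4, 0.015 for Kir, 0.063 for silent Kv, 0.055 for KChIP, 0.017 for Kv7 and 0.078 for BK. The EAG, HERG and ELK genes stood at 0.020 in HT (6 of 8 higher) and -0.042 in WT (2 of 8 higher). The 2 KCNE genes, both low in level, stood at -0.23 in HT (2 of 2 lower) and -0.18 in WT (1 of 2 lower). Between the genotypes, which share no library in these 2 comparisons, 43 of 73 genes had the same sign (58.9%), against 61.2% of all genes tested, and under fluoxetine 35 of 73 did (47.95%, against 58.1%).

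**Figure D3:**
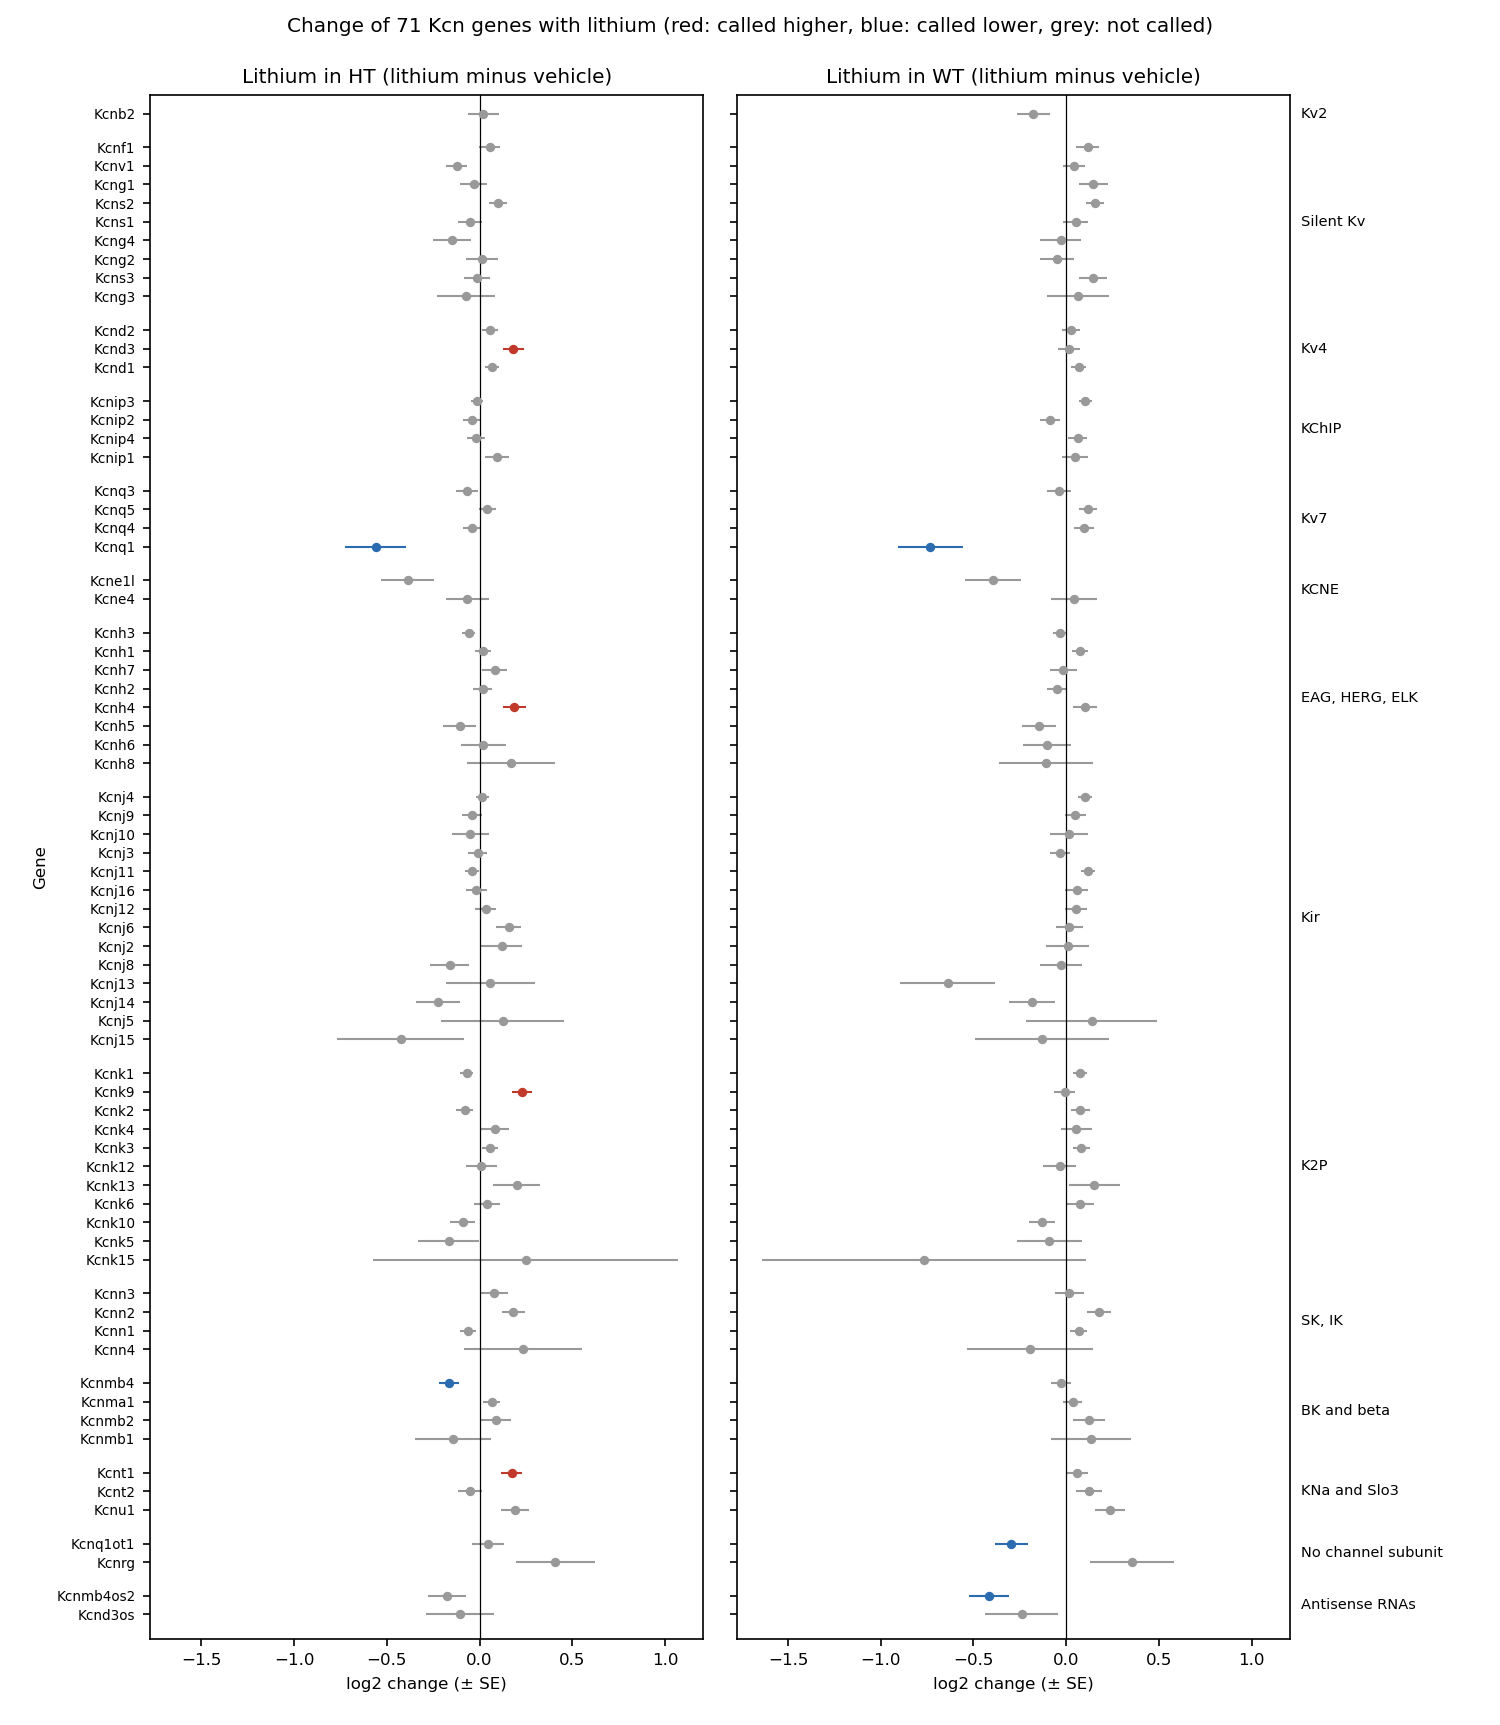
Log2 change with lithium (point, with SE) of each of 71 genes by subfamily, in HT mice (left) and WT mice (right), with called genes in red (higher) or blue (lower). Kcnq1 is blue on both sides at -0.56 and -0.73, and the 4 red points, Kcnd3, Kcnh4, Kcnk9 and Kcnt1, are in HT at 0.17 to 0.23.

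None of the 73 genes passed the threshold with fluoxetine in either genotype by limma. In WT mice limma called 0, edgeR 0 and DESeq2 1 of 73 genes (Kcnk6, adjusted p = 0.0368), while limma called 0.146% and DESeq2 0.714% of all genes tested. An unadjusted p below 0.05 was found in 7 of the 73 genes there (9.59%, against 10.85% of all genes). In HT mice all 3 tools called 0, where limma called 0.045% of all genes tested, and 10 of the 73 genes had an unadjusted p below 0.05 (13.7%, against 8.56% of all genes). Kcnk6, the TWIK2 leak channel, had the smallest p in WT mice, with 135 to 221 (median 191) under fluoxetine and 112 to 168 (median 154) under vehicle (log2 change 0.28 ± 0.075, adjusted p = 0.0940). The groups overlapped over both sexes. In females the 4 fluoxetine libraries had 192 to 221 and the 5 vehicle libraries 112 to 154. In males the fluoxetine libraries had 135 to 191 and the vehicle libraries 158 to 168. The share of all genes that separate within a single sex was not computed, so the gap in females has no background to be set against. The difference between the sexes was -0.63 ± 0.15 (males minus females, unadjusted p = 0.000118, adjusted 0.973).

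Kcnd3, the Kv4.3 gene, had 2107 to 3012 (median 2354) in HT fluoxetine mice and 1847 to 2484 (median 2170) in HT vehicle mice (log2 change 0.15 ± 0.059, adjusted p = 0.533). In WT it had 2247 to 3057 (median 2465) under fluoxetine and 1953 to 2498 (median 2206) under vehicle (log2 change 0.18 ± 0.061, adjusted p = 0.195). Kcnk13, the THIK1 leak channel of microglia, had 117 to 183 (median 163) in WT fluoxetine mice and 85.4 to 211 (median 121) in WT vehicle mice (log2 change 0.42 ± 0.14, adjusted p = 0.180). Kcnk13 was also among the genes most closely related to the olfactory score (r = 0.80), of whose 15 markers 14 had a positive estimate in WT fluoxetine mice and none in HT fluoxetine mice (median log2 changes 0.19 and -0.22). With the olfactory and striatal scores as covariates the log2 change of Kcnk13 in WT was 0.34 (adjusted p = 0.0359).

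The median log2 change with fluoxetine was 0.027 in HT mice, where 49 of 73 genes had a positive estimate (67.1%, against 50.4% of all genes tested), and -0.0017 in WT mice, where 35 of 73 did (47.9%, against 51.3%). In HT mice the 3 Kv4 genes, the 4 KChIP genes and 4 of 5 Kv7 genes had positive estimates. Both KCNE genes had negative ones: Kcne4 had 24.1 to 42.7 (median 33.6) in HT fluoxetine mice and 32.8 to 69.7 (median 44.3) in HT vehicle mice (log2 change -0.35 ± 0.12, adjusted p = 0.439). In WT mice all 8 EAG, HERG and ELK genes had negative estimates, from -0.47 to -0.00091 with a median of -0.049. The fluoxetine and lithium comparisons of a genotype share their vehicle libraries.

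Genotype gave no call among the 73 genes under any treatment. Limma, edgeR and DESeq2 called 0 in each, and limma called 0.00562% of all genes tested under vehicle, 0.0112% under fluoxetine and 0.0337% under lithium. An unadjusted p below 0.05 was found in 7 of the 73 genes under vehicle (9.59%, against 9.93% of all genes), in 4 under fluoxetine (5.48% against 3.94%) and in 12 under lithium (16.4% against 10.3%). Under vehicle Kcnq1ot1 had the smallest p, with 539 to 964 (median 810) in HT mice and 872 to 1055 (median 948) in WT mice (log2 difference -0.29 ± 0.086, adjusted p = 0.240), and 9 of 10 HT libraries lay below the WT mean of their sex. Kcnh7, the HERG3 channel, had 3778 to 5850 (median 4758) in HT mice and 4317 to 6608 (median 5460) in WT mice (-0.23 ± 0.070, adjusted p = 0.251), with 10 of 10 HT libraries below. All 8 EAG, HERG and ELK genes had a negative estimate under vehicle, with a median of -0.090. This comparison shares its WT vehicle libraries with the fluoxetine and lithium comparisons in WT. Of the 73 genes 29 were higher in HT (39.7%, against 51.6% of all genes tested), with a median of -0.015.

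Under lithium Kcnv1, a silent Kv8 subunit that joins Kv2, had the smallest p of the genotype comparisons. It had 2423 to 3309 (median 2925) in HT mice and 2930 to 3642 (median 3360) in WT mice, with 10 of 10 HT libraries below the WT mean of their sex (log2 difference -0.23 ± 0.058, adjusted p = 0.200). Kcnk1 had 2328 to 2766 (median 2544) in HT mice and 2620 to 2926 (median 2819) in WT mice (-0.13 ± 0.037, adjusted p = 0.266). All 5 Kv7 genes, 7 of 9 silent Kv genes and 12 of 14 Kir genes had a negative estimate, and 26 of 73 genes were higher in HT (35.6%, against 47.5% of all genes tested). Under fluoxetine the smallest p was that of Kcnk6, with 129 to 186 (median 151) in HT mice and 135 to 221 (median 191) in WT mice (-0.23 ± 0.075, adjusted p = 0.9998), and 38 of 73 genes were higher in HT (52.1%).

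The genotype by drug interactions gave no call among the 73 genes by limma, edgeR or DESeq2. Of all genes tested limma and edgeR called none in either, and DESeq2 called 0 for fluoxetine and 4 for lithium, while 967 and 1934 had an unadjusted p below 0.05. For fluoxetine 6 of the 73 had an unadjusted p below 0.05 (8.22%, against 5.44% of all genes tested), led by Kcnk6 (-0.29 ± 0.10, adjusted p = 0.812), and for lithium 7 (9.59% against 10.9%), led by Kcnk9. The drug effects in males minus those in females gave no call among the 73 genes with any of the 3 tools. Over all genes limma and edgeR called none in these comparisons, and DESeq2 called 4 for fluoxetine in HT, 3 for fluoxetine in WT, 1 for lithium in HT and 0 for lithium in WT. An unadjusted p below 0.05 was found in 2 of the 73 genes for lithium in HT mice (2.74%, against 2.71% of all genes tested) and in 13 for lithium in WT (17.8% against 6.59%). For fluoxetine it was found in 4 in each genotype (5.48%, against 5.97% of all genes in HT and 4.79% in WT). The smallest p under lithium in WT was that of Kcnj6, the GIRK2 channel, at -0.40 ± 0.15 (adjusted p = 0.741), and in HT that of Kcnmb1, the smooth muscle beta subunit of BK, at 0.93 ± 0.41 (adjusted p = 0.99999). Under fluoxetine in HT it was that of Kcnh6, the HERG2 channel, at -0.62 ± 0.25 (adjusted p = 0.786).

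Of 20 listed partners of these channels 18 were tested. Under lithium in HT mice Abcc8, the sulfonylurea receptor that assembles with Kcnj11, rose (log2 change 0.16 ± 0.052, adjusted p = 0.0387), and Calm2, whose protein binds Kv7 and SK channels, fell (-0.093 ± 0.030, adjusted p = 0.0397). Under lithium in WT mice 1 of 18 was called: Chrm1, the muscarinic receptor that closes M-channels, rose (0.14 ± 0.036, adjusted p = 0.0163). Of all genes tested 8.77% were called in HT and 5.71% in WT, so the WT count stood near that background.

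Between libraries of the same group, many of these genes varied with the scores of cell type marker lists. Deviations from the 12 means of genotype, treatment and sex were set against scores of 10 marker lists, 730 relations in all, and 184 of them, over 59 of the 73 genes, had an adjusted permutation p below 0.05. For the background, the same r was computed for all genes tested, leaving each marker out of the relations with its own list. An r of at least 0.5 in size with any of the lists was found in 42 of the 73 genes (57.5%) and in 34.2% of all genes. With the excitatory score it was found in 42.5% of the 73 and 18.0% of all genes, and with the olfactory score in 32.9% and 13.8%, differences that were not tested. Of the 184 relations with an adjusted permutation p below 0.05, 43 were with the excitatory neuron score, 28 of them positive. The olfactory and neuroblast score had 40, of which 16 were positive. The share of all genes that pass this p threshold was not computed. Kcnj9, the GIRK3 channel, followed the excitatory score most closely (r = 0.89, rho = 0.84, r = 0.87 without the 2 libraries farthest from the median). The mechanically gated leak channel Kcnk4 (TRAAK) came next (r = 0.86, rho = 0.80, 0.85 without the 2), then Kcnmb4 (r = 0.80, rho = 0.74, 0.77). All 3 had a permutation p of 1e-05, the smallest that 100000 permutations can give (adjusted 0.000261).

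The olfactory score was followed by Kcnk15, a K2P gene of the TASK group (r = 0.87, rho = 0.89, 0.86 without the 2 farthest libraries), and by the KChIP gene Kcnip1 (r = 0.835, rho = 0.815, 0.80), and was opposed by Kcnj9 (r = -0.81, rho = -0.77, -0.78). Kcnk15 was at 0 in libraries of every group and reached 53.2 in HT lithium mice and 50.6 in WT vehicle mice. Kcnj10, the Kir4.1 channel by which astrocytes take up potassium, followed the astrocyte score (r = 0.61, rho = 0.62, 0.62, adjusted p = 0.000261). It also followed the interneuron (r = 0.59) and the endothelial and pericyte (r = 0.54) scores. Kcnk2 (TREK1) followed the striatal score (r = 0.70, rho = 0.56, 0.60, adjusted p = 0.000261) and Kcnj13, the Kir7.1 channel, the meningeal score (r = 0.55, rho = 0.49, 0.45, adjusted p = 0.00131). These relations share library and depth, and the olfactory and excitatory scores come from the same tissue block.

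**Figure D4:**
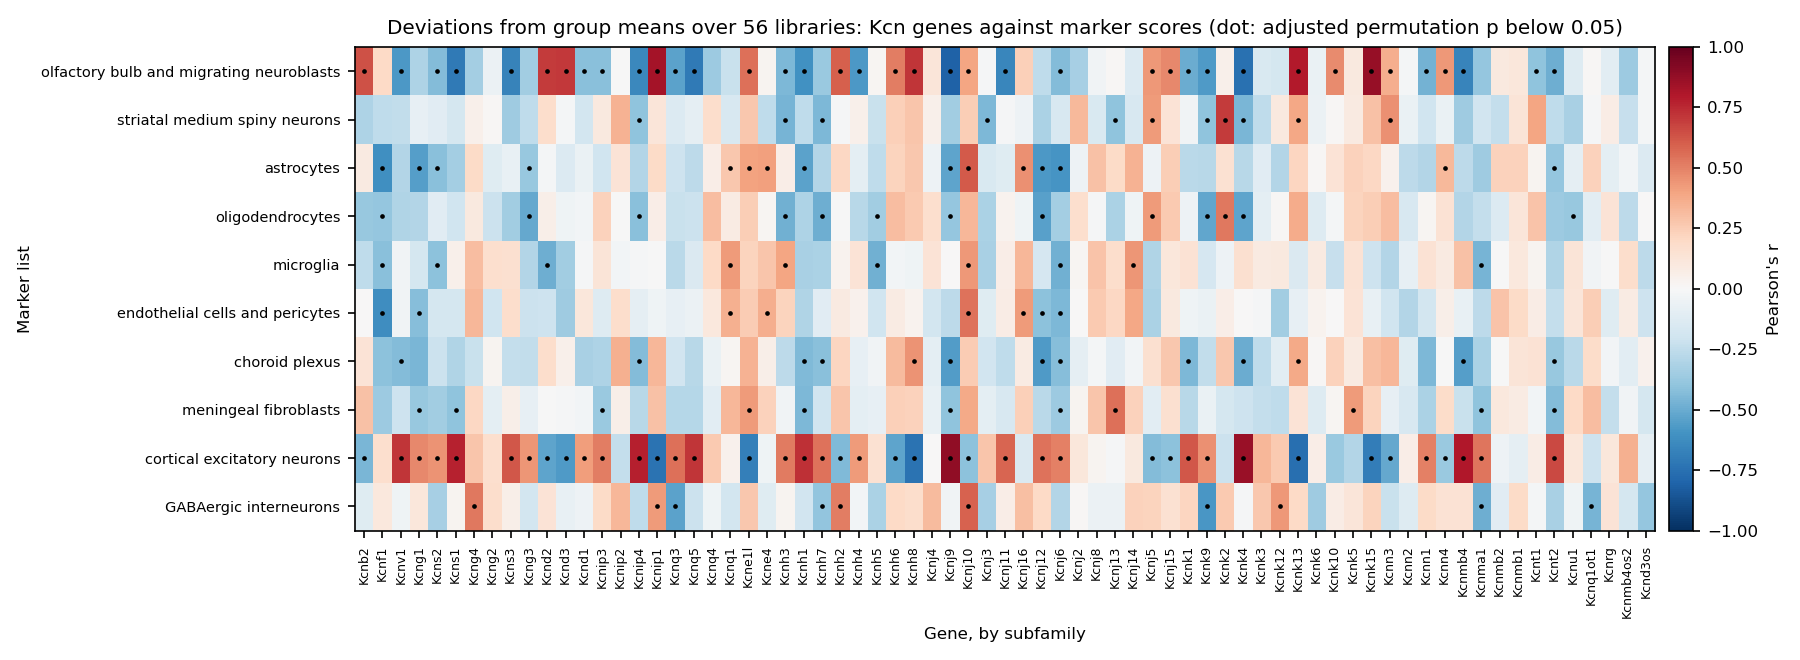
Pearson's r between the deviations of each of 71 genes and those of 10 marker scores from their group means over 56 libraries, red positive and blue negative, with a dot where the adjusted permutation p is below 0.05. The excitatory and olfactory rows carry the most dots, and the 2 rows have opposite colours in every gene with a dot in both.

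**Figure D5:**
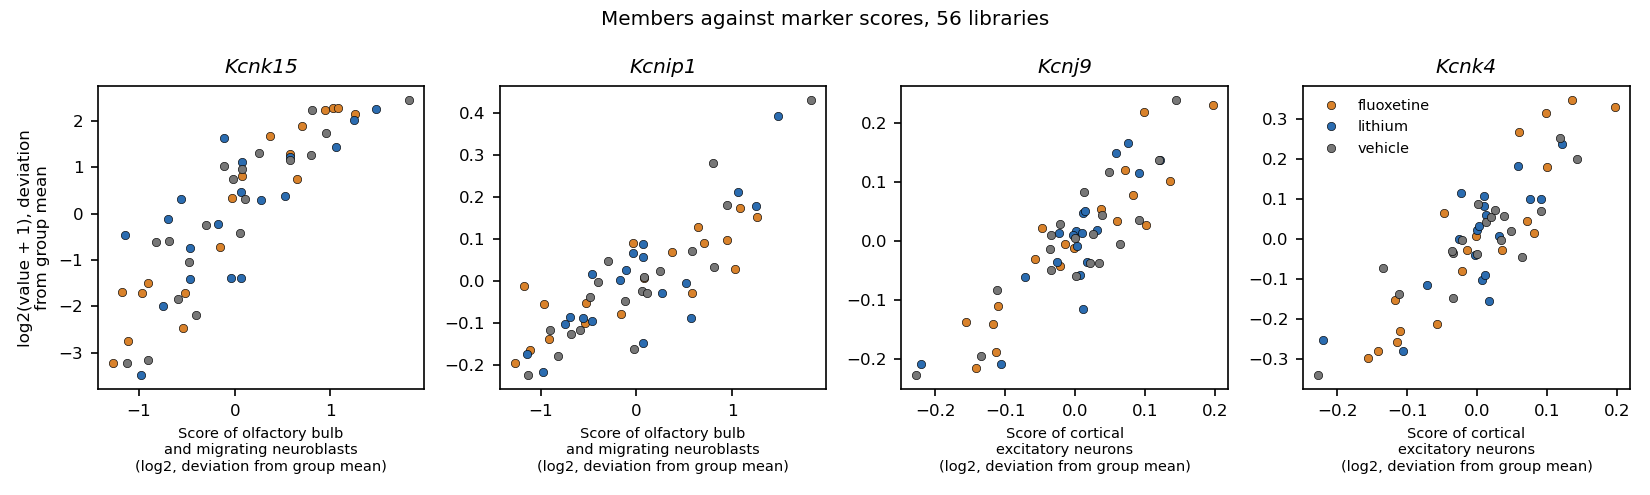
Deviation of log2(value + 1) from the group mean for Kcnk15 and Kcnip1 against the olfactory score and for Kcnj9 and Kcnk4 against the excitatory score, 1 point per library, coloured by treatment. Points of the 3 treatments mix along each line (r = 0.87, 0.835, 0.89 and 0.86).

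Genes whose proteins assemble, or that lie beside each other, were compared in the same way in 22 pairs, of which 11 had an adjusted permutation p below 0.05. For scale, r over all 2628 pairs of the 73 genes had a median of 0.0088 and ran from -0.47 at the 5th percentile to 0.54 at the 95th. The share of all these pairs that would pass the permutation test was not computed, so the count of 11 has no background. The M-channel genes Kcnq3 and Kcnq5 varied together most closely (r = 0.85, rho = 0.79, 0.81 without the 2 farthest libraries, adjusted p = 0.000220). The astrocyte pair Kcnj10 and Kcnj16 gave r = 0.63 (rho = 0.54, 0.49, adjusted p = 0.000550). Among GIRK genes, Kcnj6 and Kcnj9 gave r = 0.53 (rho = 0.52, 0.49, adjusted p = 0.00103), below the 95th percentile of all pairs. Kcnj3 gave 0.16 with Kcnj6 and 0.030 with Kcnj9 (adjusted p = 0.401 and 0.859).

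Kcnd2 varied with Kcnd3 (r = 0.56, rho = 0.54, 0.53, adjusted p = 0.00158) and with Kcnip1 (r = 0.56, rho = 0.49, 0.53, adjusted p = 0.00150), and against Kcnip3 (r = -0.48, rho = -0.44, -0.47, adjusted p = 0.00261). Each of these r lay only just outside the 5th to 95th percentile of all pairs (-0.47 to 0.54). The BK pore Kcnma1 and its subunit Kcnmb4 gave r = 0.094 (rho = 0.041, adjusted p = 0.653). Kcnj9 and Kcnj10, which lie 11891 bases apart on chromosome 1, varied in opposite directions (r = -0.50, rho = -0.58, -0.48, adjusted p = 0.00143). Kcnj9 followed the excitatory score (r = 0.89). Kcnj10 followed the astrocyte (r = 0.61), interneuron (r = 0.59) and endothelial and pericyte (r = 0.54) scores. The part of these scores in the relation of the pair was not tested.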

How the data were processed

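Prefrontal cortex RNA of 56 mice was sequenced from TruSeq Stranded mRNA libraries (per the labels' protocols). The deposited table holds, per gene and library, a signal that the authors obtained by dividing a read count by a size factor per library. Per the submitters' processing notes, the tools were Salmon 0.11.2, R 3.6.0 and DESeq2 1.19.11, with build GRCm38, and whether counting used strand is not given in the sources used here. All values (100%) came back as whole reads at a tolerance of 0.01 reads, with size factors of 0.818 to 1.23. Symbols were paired with 18077 of 18088 gene IDs.

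Genes with a value of at least 10 in at least 4 libraries (17778) were fitted in R 4.3.3 with limma 3.58.1 (trend, robust) on log2(value + 1). The model had 1 mean per group, for 12 groups of genotype, treatment and sex, and the main fit held all 56 libraries. Effects were averaged over the sexes. P-values were adjusted over all genes tested by the Benjamini-Hochberg method and called below 0.05. A fold change on this scale understates the change of low genes. Levels per kb use the union of exons in GENCODE vM21 basic. Correlations used deviations from the 12 group means, permuted 100000 times within groups, two-sided, with adjustment over 730 relations for marker scores and over 22 pairs. Alternatives were TMM rescaling, voom, no filter, pseudocounts of 0.5 and 5, the compared groups alone, the replicate number as a block, tissue scores as covariates, omission of each library or of 19 marker-rich ones, and edgeR 4.0.16 and DESeq2 1.42.0 on the recovered reads. The fits were tested on simulated data. Named genes were by rule those called, the highest of each subfamily, the smallest p of each comparison and the lowest in level. Further genes, among them Kcnu1, Kcnh7, Kcnk13 and Kcne4, were named outside this rule with their values known. Some results on single genes are not reported here, and 2 of the 73 genes are left out of the figures. The members and lists were chosen with earlier results of these data known.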

Additional observations from a re-analysis of the deposited data

Results flagged for a closer look

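Among 23 named genes in the 6 groups of genotype and treatment (138 groups of values), 7 held a library that stood apart from the rest of its group by Dixon's test at the 95% level, and chance alone flags about 1 in 20 groups. Kcnt1 stood at 5725 in HT fluoxetine male 5, against 4147 to 4855 in the other libraries of its group, and at 3303 in HT vehicle female 4, against 4206 to 4864. Kcnq1 stood at 69.3 in WT fluoxetine female 1, against 33.3 to 45.9. Kcnmb4 stood at 1707 in WT lithium male 4, against 1972 to 2153, and Kcnj6 at 1207 in WT lithium female 4, against 836 to 989. Kcnj4 stood at 4038 in HT lithium female 4, against 4373 to 4667, and Kcnv1 at 2412 in WT vehicle female 3, against 3142 to 3599. Of these libraries HT fluoxetine male 5, HT vehicle female 4, WT lithium male 4 and WT vehicle female 3 were among the 19 rich in olfactory or striatal markers.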

How the results depend on the processing

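The counts of genes called moved with the samples used. For lithium in WT mice the 3 calls became 6 in a fit to the groups compared alone. Without the 19 marker-rich libraries Kcnq1 (adjusted p = 0.177), Kcnq1ot1 (0.0808) and Kcnmb4os2 (0.0903) all lost their calls. Only 1 gene was called there, another one and higher. For lithium in HT mice the 6 became 2 without those libraries, which also leave fewer samples. For fluoxetine in WT mice the 0 became 1 with tissue scores as covariates (Kcnk13) and 1 with DESeq2 (Kcnk6). Omitting single libraries gave 2 to 7 calls for lithium in WT, 1 to 7 for lithium in HT and 0 to 1 for fluoxetine in WT, and 0 throughout in the other comparisons. In WT lithium, the count was 5 without HT vehicle female 1 or WT vehicle female 4 and 7 without WT fluoxetine male 5. In HT lithium it was 1 without HT lithium male 3 or HT vehicle male 1, 2 without HT vehicle female 2 or male 5, and 3 without HT lithium female 5, HT vehicle female 4 or HT vehicle male 2. In fluoxetine in WT it was 1 without WT fluoxetine male 1. The causes were not tested.

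With the replicate number as a block the counts were 4 for lithium in WT, 5 for lithium in HT and 0 elsewhere, as Kcnh4 (adjusted p = 0.0504) and Kcnt1 (0.0560) lost and Kcnn2 (0.0249) gained a call in HT and Kcnu1 (0.0395) gained one in WT. The labels do not say that a number pairs samples: same-numbered libraries of different groups correlated at -0.24 to 0.43 (median -0.0016), and 9 of 56 correlated best with their own number.

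Of 108 estimates of single genes repeated under these alternatives, 8 turned direction in any of them, and none of the 8 was called. Kcnd3 in WT lithium was -0.00045 without the marker-rich libraries and -0.0036 to 0.041 over single omissions, Kcnk9 in WT lithium -0.038 to 0.031, and Kcnq1ot1 in HT lithium -0.0051 to 0.0995. With tissue scores as covariates Kcnt1 was -0.0054 and Kcnh2 0.0019 in WT lithium. Without the marker-rich libraries Kcnh2 was -0.052 and Kcnq3 0.018 in HT lithium and Kcnma1 -0.038 in WT lithium, and single omissions gave -0.012 to 0.049 for Kcnh2 in HT. Depth limits Kcnj15, Kcnn4, Kcnj5, Kcnk15 and Kcnrg most, and possible shared dams cannot be told apart from treatment.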
